A study of Mus musculus with 16 samples.

Results

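Of 831 genes with deposited values, 80 had lower RNA levels in dystrophic than in non-dystrophic muscle both with and without the microRNA miR-133b. They were chosen by their values: the mdx mean was at most 0.6 times the Control mean, and the mdx/miR-133b-/- mean was at most 0.6 times the miR-133b-/- mean. Only protein-coding autosomal genes were taken, and symbols starting with mt-, Nduf, Cox, Uqcr or Atp5 were left out, as were Hlf, Ciart, Usp2, Dbp, Per2, Hk2, Aldoa, Ces1d, Dach2, Slc1a1, Klf15, Myh4 and Vash2, which left 724 genes that could qualify. Both ratios were met by 108 genes of any kind, of which 22 were not protein-coding and autosomal and 6 were left out by name. RNA came from whole tibialis anterior muscle, a fast hindlimb muscle, of mice at postnatal day 30, in 16 libraries, 4 in each of 4 groups. Control animals were of the Wild Type genotype, miR-133b-/- animals lacked the microRNA, mdx animals had the genotype mdx-/-, and the double mutants, labelled mdx/miR-133b-/-, carried both changes. mdx mice have a mutated dystrophin gene in every cell and serve as a model of Duchenne muscular dystrophy. Strain, sex and the construction of the miR-133b allele were not given in the sources used here. Separate animals behind the 4 libraries of a group are not stated in the labels, so the p-values measure the spread between samples only, and that spread may be technical. Each level is a scaled count: the number of reads of a gene, multiplied by the authors by 1 factor for the library.

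Dystrophin links the cytoskeleton of the muscle fibre to the surrounding matrix, and fibres without it are injured by contraction, die and are replaced from muscle stem cells. In mdx hindlimb muscle this damage and repair is intense in the weeks before and around the sampled age, so a whole-muscle extract then holds mature fibres, newly formed fibres, immune cells and matrix cells together. miR-133b is a microRNA enriched in skeletal muscle that is transcribed together with miR-206, and microRNAs lower the stability or translation of messenger RNAs whose 3' UTR pairs with their seed. The genes described here encode enzymes, channels, transporters, receptors and regulators.

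Samples were grouped by the code in the title, because the description of 14 of the 16 samples names the code of another sample. The summed level of 6 embryonic and regeneration genes (Chrng, Myh3, Myl4, Mymk, Myog and Tnnt2) was 1659 to 6043 in the libraries titled mdx and 809.1 to 7465 in the double mutants. It was 202.9 to 304.5 in Control and 107.4 to 275.0 in miR-133b-/-, so the 8 libraries titled with mdx and the 8 without it did not overlap. The sums did overlap between Control and miR-133b-/-, and between mdx and the double mutants. They therefore do not check the grouping by miR-133b. Dmd and the miR-133b locus were not analysed here. Reads in the listed genes numbered 2356990 to 6000033 per library, and total depth is unknown. Among the Control libraries, Control 1 was the highest in 46 of the 80 genes and Control 2 the lowest in 53.

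Since some groups lack miR-133b, the letters by which it could pair with these RNAs are shown first. The mature miR-133b-3p of RefSeq (GRCm38.p6, chr1:20682834-20682855, plus strand) is printed 5′ to 3′ with its seed, bases 2 to 8, in capitals. For each of the 80 genes, the annotated 3' UTR of the longest protein-coding transcript was searched, and other transcripts were not. Every match to that seed in these UTRs follows. In the matches the capitals mark the bases that pair with the seed and, in the last one, the further A of an 8mer site.

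miR-133b-3p: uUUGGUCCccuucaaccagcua
Cyb5b, base 942 of 3803 of its 3' UTR: agtttaaaaagGGACCAAcatgcgctctc
Aldh5a1, base 163 of 3982: tatctaactaaGGACCAAtagatgccata
D430041D05Rik, base 3616 of 5708: tctagtctcaaGGACCAAAaacctgtccag

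The site GGACCAA was present in 3 of 80 member UTRs (3.75%), against 68 of 776 UTRs of the listed genes (8.76%), although the median UTR was longer in the members (1648 bases against 1243). None of the 3 genes passed a test for loss of miR-133b (limma). Cyb5b, which encodes a cytochrome b5 of the outer mitochondrial membrane, had means of 2721 ± 360.0 (SD, n = 4) in Control and 3410.5 ± 904 in miR-133b-/-, and 1412 ± 109 in mdx and 1880.4 ± 320.4 in the double mutant. Aldh5a1, succinate semialdehyde dehydrogenase, had 225 ± 36.9 and 299 ± 50.3, then 129.8 ± 24.7 and 136 ± 43.0, in the same order. D430041D05Rik had 108 ± 13.1 and 142 ± 31.6, then 55.7 ± 8.55 and 78.1 ± 20.9. The mean was higher without miR-133b on both backgrounds for each of these, by log2 differences between 0.03 and 0.45, which did not pass the test. Over all 80 members the difference was above 0 in 49 for miR-133b-/- against Control and in 33 for the double mutant against mdx. In the same order, it was above 0 in 42.72% and 47.05% of listed genes. A seed match is a letter pattern and was not tested as a site.

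The falls in dystrophic muscle are described here without a test, since the genes were chosen by them. The mdx to Control ratio of means ran from 0.248 to 0.597 with a median of 0.527, and the ratio of the double mutant to miR-133b-/- ran from 0.180 to 0.582 with a median of 0.464. On the log2(scaled count + 1) scale of the fit, the median difference was -0.91 between mdx and Control and -1.10 between the double mutant and miR-133b-/-, while the medians over all 831 genes were 0.44 and 0.95. Beside the 21.7% of listed genes that limma with Benjamini-Hochberg adjustment called lower in mdx than in Control, 79 of the 80 were called; the remaining one was Cntfr. Beside 40.1% called lower in the double mutant than in miR-133b-/-, all 80 were; each of the 831 listed genes passed in that comparison, 333 lower and 498 higher. Nothing is read from these counts, since they rest on the values that chose the genes.

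Group overlap is given as a description only. It rests on the values that chose the genes, so nothing is read from the members' counts beside those of the listed genes. Without overlap, the 4 mdx libraries lay below the 4 Control libraries in 72 members (24.2% of listed genes did so), and the 4 double mutants lay below the 4 miR-133b-/- libraries in 62 (30.7% of listed genes). In 37 members all 8 libraries with mdx lay below all 8 without it, against 12.2% of the listed genes. The deposited list itself is limited in the same direction: every listed gene that was lower in the double mutant than in miR-133b-/- had a ratio of 0.582 or less, so the second condition removed none of the 333 lower genes. The 80 therefore differ from the other 195 protein-coding autosomal genes among them, under the same exclusions, through the mdx to Control ratio. That ratio had a median of 0.757 in the 195. The nearest members inside the limit were Rps6ka2 (mdx to Control ratio 0.597), Adssl1 (0.593) and Dglucy (0.593), and the nearest genes outside were Pde4dip (0.60052), Perm1 (0.6006) and Flt1 (0.60062).

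**Figure D1:**
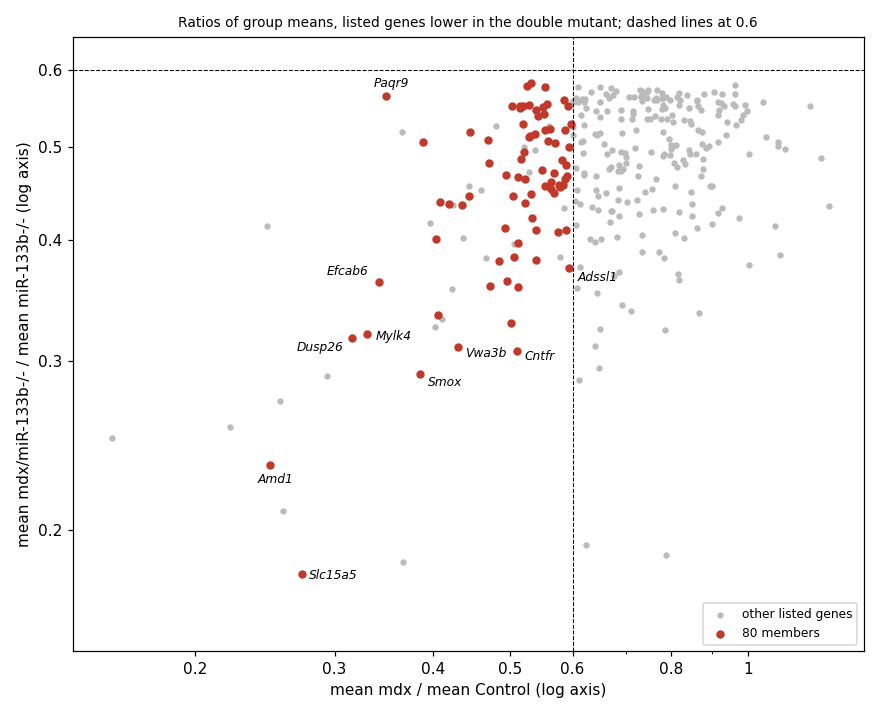
Each point is a listed gene that was lower in the double mutant, placed by its mdx to Control ratio of means (horizontal, log axis) and its ratio of the double mutant to miR-133b-/- (vertical, log axis); dashed lines mark 0.6, red points are the 80 members, and 7 of the 333 genes lie outside the axes. Grey points left of the vertical line are genes left out by type or name, and Slc15a5 and Amd1 are the members at the lowest ratios.

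Taken by library, the median over the 80 genes of the log2 difference from the Control mean was -0.206 to 0.204 in the Control libraries and 0.042 to 0.305 in miR-133b-/-. It was -1.043 to -0.805 in mdx and -1.186 to -0.821 in the double mutants, and no library with mdx reached the range of those without it. The genes were chosen by the means of these groups, so nothing is read from that separation. The 195 other lower genes had library medians of -0.510 to -0.269 in mdx and -1.008 to -0.793 in the double mutants. Replicates of a group differed more in the 2 groups without miR-133b: the median SD of a member on the log2 scale was 0.232 in Control and 0.231 in mdx, against 0.335 in miR-133b-/- and 0.351 in the double mutant. The same held over all listed genes (0.272 and 0.214 against 0.427 and 0.381), and this difference in spread was not tested.

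**Figure D2:**
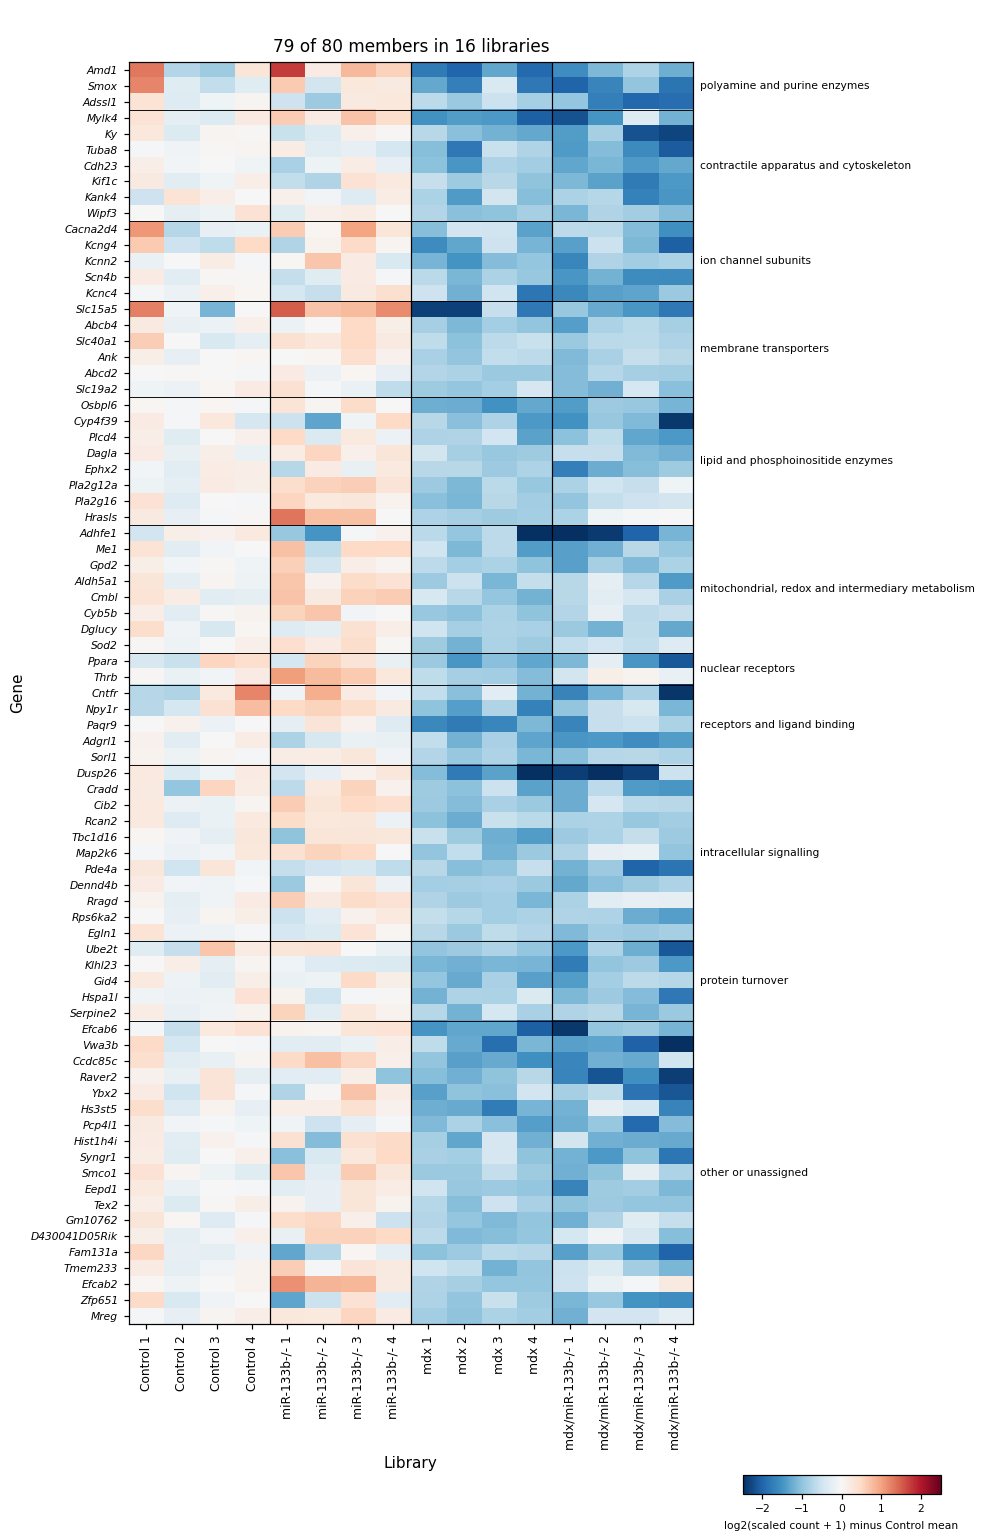
Rows are 79 of the 80 members by role and columns the 16 libraries; colour is log2(scaled count + 1) minus the gene's Control mean, blue for lower and red for higher, with the colours saturating at the ends of the scale. Blue fills both mdx blocks, Control 1 is red for Amd1, Smox and Slc15a5, and Efcab2 and Thrb are red in miR-133b-/- and near white in most double mutants.

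Other cell types changed between the same libraries. Of 11 macrophage markers, 8 are listed, and 7 were higher in mdx than in Control (limma, adjusted p under 0.05), beside 44.5% of all listed genes. Their summed level was 1366 to 1824 in Control and 5214 to 8047 in mdx, and 871.0 to 2323 in miR-133b-/- against 3258 to 10280 in the double mutant. Itgax, one of them, was at 0 in at least 1 library. All 4 listed of 6 fibro-adipogenic markers were higher in mdx, with sums of 11330 to 21050 in Control, 36560 to 38780 in mdx, 8475 to 19880 in miR-133b-/- and 25590 to 48680 in the double mutant. Of 10 muscle fibre markers 4 are listed, Actn3, Ckm, Myh4 and Pvalb, and 2 passed as lower in mdx, beside 21.7% of all listed genes. Their sum was 592300 to 730100 in Control, 375400 to 552400 in mdx, 314900 to 730400 in miR-133b-/- and 256300 to 320300 in the double mutant. Their mdx to Control ratios were 0.704, 0.736, 0.671 and 0.871, all above the range of the members. For Actn3, Ckm and Pvalb the rule fixed this, since at 0.6 or less they would have been members. Myh4 was left out by name, and nothing is read from the difference. The ratios of these 4 markers for the double mutant to miR-133b-/- were 0.438, 0.564, 0.477 and 0.546. These lie within the range of the members, but every listed gene lower in the double mutant had a ratio of 0.582 or less. Flt1, the only listed marker of 7 for endothelial cells, was 1687 to 2039 in Control and 855.8 to 1301 in mdx, and was lower there. None of the markers searched for adipocytes, Schwann cells, satellite cells, smooth muscle and pericytes or erythrocytes was among the 831 listed genes. The part of these changes in the falls of the 80 genes was not tested, and in whole tissue fewer cells of a type and less RNA per cell cannot be told apart.

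The polyamine and purine enzymes include Amd1, the member with the lowest mdx to Control ratio. Amd1 encodes S-adenosylmethionine decarboxylase, which supplies the aminopropyl groups from which spermidine and spermine are made. Its scaled counts were 4257, 1029, 918 and 2092 in the 4 Control libraries and 498, 433, 688 and 441 in mdx, a ratio of means of 0.248. They were 5706, 1962, 3006 and 2557 in miR-133b-/- and 579, 782, 999 and 734 in the double mutant, a ratio of 0.234. Groups did not overlap on either background, but Control 1 and miR-133b-/- 1 were far above the rest of their groups, and without Control 1 the mdx to Control ratio was 0.382. A near-identical copy, Amd2, exists in the genome, and how the counting treated reads that match both was not given in the sources used here.

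Smox encodes spermine oxidase, which turns spermine back into spermidine. It was 2829.8, 980.4, 788 and 975 in Control and 495, 368, 929 and 351 in mdx, and the groups overlapped, since mdx 3 lay above Control 3. On the other background it was 1890.0, 874, 1446 and 1414 in miR-133b-/- and 303, 383, 609.9 and 339 in the double mutant, without overlap. The size of its fall in mdx against Control rested on 1 library: the mdx to Control ratio of Smox was 0.385 with all libraries and 0.586, still within the limit, without Control 1. Adssl1, the muscle form of adenylosuccinate synthase in the purine nucleotide cycle, was 4798, 3044, 3530.4 and 3986 in Control and 2395, 1977, 2610.3 and 2129.5 in mdx, without overlap. It was 2641, 2013, 4407 and 4550.3 in miR-133b-/- and 1934, 1163, 975 and 1015 in the double mutant. Its mdx to Control ratio of 0.593 became 0.647 without Control 1, which is outside the limit. Its call in mdx against Control then ended (limma, adjusted p = 0.0596; other alternatives kept it). From a list of polyamine, creatine and nucleotide genes 5 are listed. Amd1, Smox, Adssl1 and Ckm were called lower in mdx and none higher, beside 21.7% and 44.5% of all listed genes. The fifth, Sat1, an enzyme of polyamine breakdown, had a ratio of 1.47 and did not pass in mdx against Control.

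The upstream windows of Amd1, Smox and Mylk4 are shown as those of the polyamine enzymes and of the member with the highest level per length, a choice made after their values were seen. Each is the 250 bases before a RefSeq start on GRCm38.p6, 5′ to 3′ along the gene's strand, and capitals mark matches to the searched motifs.

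Amd1, chr10:40302189-40302438, minus strand: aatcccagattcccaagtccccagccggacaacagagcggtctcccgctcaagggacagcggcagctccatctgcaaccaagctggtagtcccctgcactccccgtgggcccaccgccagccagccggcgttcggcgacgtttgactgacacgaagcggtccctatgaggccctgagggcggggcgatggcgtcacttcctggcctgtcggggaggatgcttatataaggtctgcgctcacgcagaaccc
Smox, chr2:131491612-131491861, plus strand: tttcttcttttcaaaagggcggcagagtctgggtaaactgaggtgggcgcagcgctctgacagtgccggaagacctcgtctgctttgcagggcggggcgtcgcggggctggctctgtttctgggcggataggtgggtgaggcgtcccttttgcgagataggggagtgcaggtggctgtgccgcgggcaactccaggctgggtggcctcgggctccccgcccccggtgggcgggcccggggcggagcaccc
Mylk4, chr13:32783965-32784214, minus strand: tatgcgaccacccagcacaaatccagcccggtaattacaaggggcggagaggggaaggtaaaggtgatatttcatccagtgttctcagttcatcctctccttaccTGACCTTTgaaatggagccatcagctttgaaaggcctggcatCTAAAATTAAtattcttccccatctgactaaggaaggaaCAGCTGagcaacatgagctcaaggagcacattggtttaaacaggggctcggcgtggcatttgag

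In the Mylk4 window the capitals mark, in order, AAAGGTCA on the opposite strand (a site bound by oestrogen-related and similar nuclear receptors), the MEF2 consensus, known from muscle promoters, and CAGCTG, an E-box of the kind bound by myogenic factors. None of the searched motifs was in the windows of Amd1 and Smox. RefSeq windows of 300 bases, 250 before and 50 after the start, were matched for 66 of the 80 genes, and both strands were searched. CAGCTG was in 13 of the 66 (19.7%), against 18.3% of all genes with windows and 21.7% of the 626 listed genes with windows. The shares below are given in the same order. CACGTG, the E-box of clock and other factors, was in 4 (6.06% against 8.09% and 7.83%), and TATAAA in 6 (9.09% against 15.7% and 12.1%). CAAGGTCA was in 1 member, Cradd (1.52% against 1.76% and 0.799%), and AAAGGTCA in 1, Mylk4 (1.52% against 1.70% and 1.44%). TTATGNAA was in 2 (3.03% against 3.99% and 3.83%), and the MEF2 consensus in 2, Cntfr and Mylk4 (3.03% against 3.70% and 2.72%). TGACGTCA, TGTTTAC, TCAGGTTTC and the glucocorticoid element were in none of the 66. Their shares were 2.03%, 4.05%, 0.511% and 0.537% of all genes, and 3.67%, 3.51%, 0.639% and 0.479% of listed genes. No match says only that these letters are not in these windows.

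Mylk4, a kinase of the myosin light chain kinase family, was the most abundant member per length, at 5250.0 scaled counts per kb of its longest transcript in Control. It measured 36145, 24627, 22633 and 33587 in Control and 10049, 10934, 10588 and 6957 in mdx. On the other background it was 44402, 33149, 46722 and 38971 in miR-133b-/- and 6354, 10312, 22942 and 12626 in the double mutant. No mdx library overlapped Control, and double mutant 3, at 22942, lay far above the other double mutants but below every miR-133b-/- library. Ky, a muscle protein whose loss causes kyphoscoliosis in mice, was 9171, 6022, 7979 and 7789 in Control, 5228, 6022, 8378 and 7856 in miR-133b-/-, 4719.9, 3715, 3392 and 3147 in mdx and 2919, 4298, 1684 and 1559 in the double mutant. All 8 libraries with mdx lay below the 8 others in Ky. Kif1c, a kinesin motor, was 11542, 8043, 9087 and 11049 in Control, 6423, 5845, 12548 and 11581 in miR-133b-/-, 6605, 5283, 6069 and 4898 in mdx and 4502, 3874, 2869.8 and 3612 in the double mutant. In this gene mdx 1 exceeded 2 of the miR-133b-/- libraries although each comparison of the rule was free of overlap. Of the 4 remaining genes placed in the same group here, the tubulin Tuba8 fell from 1900.2 ± 85.5 to 971 ± 320.4 in mdx (SD, n = 4). Cdh23, Wipf3 and Kank4 had Control means of 213, 326 and 84.8 and mdx to Control ratios of 0.494, 0.528 and 0.523. Mylk4 was the only member among 8 listed genes of a sarcomere and fast fibre list. Of the 8, 5 were called lower in mdx than in Control and none higher, beside 21.7% and 44.5% of all listed genes. The other 7 had ratios between 0.62 for Ryr1 and 0.87 for Pvalb.

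Channel and transporter genes formed the next groups. Scn4b, an accessory subunit of voltage-gated sodium channels, was 8511, 6092, 7558 and 7498 in Control, 4854, 5935, 8459 and 7134 in miR-133b-/-, 4606, 3331, 4249 and 3829 in mdx and 2681, 3232, 2463 and 2439.9 in the double mutant. All 8 libraries with mdx lay below the 8 others, and its ratios were 0.54 and 0.41. The potassium channel subunits Kcnc4, Kcng4 and Kcnn2 had mdx to Control ratios of 0.533, 0.434 and 0.444, and 0.421, 0.435 and 0.444 for the double mutant over miR-133b-/-. Cacna2d4, an accessory subunit of calcium channels, fell from 335 ± 203 to 171 ± 49.3 (SD, n = 4) with overlap, and from 432 ± 124 to 154 ± 40.8 on the other background without it.

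Slc15a5, of a family of proton-coupled peptide transporters, had the lowest combined ratio of all members (0.272 and 0.18). It was 137, 52.4, 24.9 and 57.5 in Control and 10.4, 10.4, 37.5 and 15.7 in mdx, with mdx 3 above Control 3. It was 165, 94.2, 99.3 and 130.3 in miR-133b-/- and 28.9, 23.2, 20.2 and 15.8 in the double mutant, without overlap. The pooled SD of 0.69 on the log2 scale was among the 2 widest of the members, and the mdx to Control ratio was 0.412 without Control 1. The steadiest member was Abcd2, a peroxisomal transporter of very long-chain fatty acids: 2161, 2191, 2126 and 2106 in Control, 2485, 1949, 2209 and 1865 in miR-133b-/-, 1284, 1247, 1128 and 1121 in mdx and 1017, 1300.1, 1211 and 1176 in the double mutant. Its pooled SD was 0.13, the level was near 388 per kb in Control, and both ratios were close to each other at 0.557 and 0.553. The iron exporter Slc40a1 (ferroportin), the thiamine transporter Slc19a2, the phosphatidylcholine transporter Abcb4 and the pyrophosphate transporter Ank had mdx to Control ratios of 0.59, 0.585, 0.516 and 0.588. Channel and transporter genes moved in both directions. Of 32 listed by name, 11 were called lower and 12 higher in mdx than in Control, beside 21.7% and 44.5% of all listed genes. Members made up 8 of the 32, beside 80 of the 831 listed genes.

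**Figure D3:**
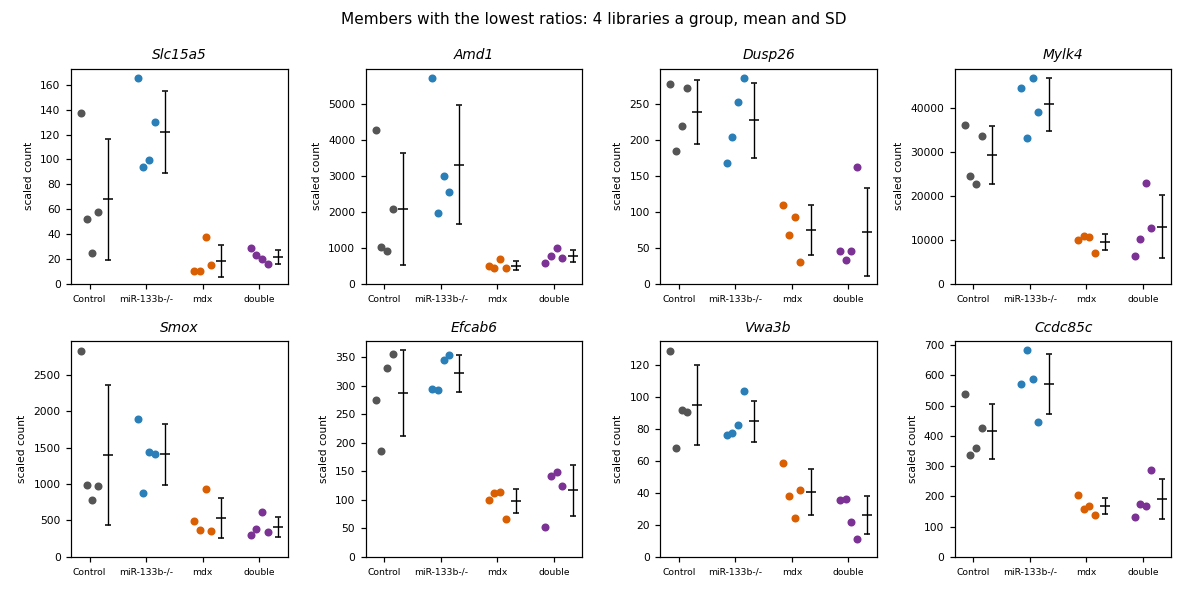
Scaled counts (vertical axes from 0) of the 8 members with the lowest combined ratios in each library of Control, miR-133b-/-, mdx and the double mutant; dots are libraries, the bar and whiskers beside them the mean and SD of 4. Control 1 stands high for Slc15a5, Amd1 and Smox, double mutant 4 for Dusp26 and double mutant 3 for Mylk4, and the 2 mdx groups lie low in all 8.

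The phosphatase Dusp26 and 3 genes without an assigned role complete the 8 lowest. Dusp26 was 279, 186, 219 and 273 in Control, 168, 205, 254 and 286 in miR-133b-/-, 111, 68.5, 92.7 and 30.3 in mdx and 45.4, 33.8, 46.2 and 163 in the double mutant. Double mutant 4 was the high one, and without it the ratio of the double mutant to miR-133b-/- was 0.183 in place of 0.316. The EF-hand gene Efcab6 was 274, 186, 331 and 356 in Control, 294, 293, 346 and 353 in miR-133b-/-, 99.0, 112, 113 and 66.8 in mdx and 51.8, 141, 148 and 124 in the double mutant. These 2 genes fell on both backgrounds. Vwa3b was 129, 68.2, 91.4 and 90.3 in Control, 76.0, 77.1, 82.4 and 103 in miR-133b-/-, 58.8, 37.9, 24.3 and 41.5 in mdx and 35.3, 36.4, 21.9 and 11.2 in the double mutant. Ccdc85c was 539, 337, 359.8 and 425 in Control, 571, 685, 589 and 444 in miR-133b-/-, 205, 159.7, 169 and 139.8 in mdx and 132, 176, 169.8 and 288 in the double mutant. In all 4 genes the 8 libraries with mdx lay below the 8 without it.

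Among the 8 genes grouped under lipids and phosphoinositides, most of them for enzymes, the mdx to Control ratios ran from 0.402 to 0.584. The lowest was that of Osbpl6, an oxysterol-binding protein relative, which fell from 1402 ± 49.5 to 564 ± 49.6 in mdx and from 1647 ± 250.3 to 659.7 ± 99.3 on the miR-133b-/- background (SD, n = 4), with all 8 libraries with mdx below the others. Pla2g16, a phospholipase and acyltransferase, had 3428 ± 685 in Control and 1779.7 ± 252 in mdx, then 4144 ± 541 and 2189 ± 333. Dagla, a diacylglycerol lipase that makes the endocannabinoid 2-arachidonoylglycerol, Ephx2, the soluble epoxide hydrolase, and the phospholipase C Plcd4 had mdx to Control ratios of 0.579, 0.584 and 0.569, and Cyp4f39, a cytochrome P450, had 0.504.

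The 8 mitochondrial, redox and intermediary metabolism genes had mdx to Control ratios of 0.472 to 0.593. Sod2, the mitochondrial manganese superoxide dismutase, was 4298, 3843, 4194 and 4602 in Control, 5690.0, 4865, 5727 and 4333 in miR-133b-/-, 2290.1, 1862, 2457 and 2285 in mdx and 2769, 3024, 2747 and 3360.3 in the double mutant. The 8 libraries with mdx lay below the 8 without it, and Sod2 was one of the 2 least variable members (pooled SD 0.16 on the log2 scale). Gpd2, the mitochondrial glycerol-3-phosphate dehydrogenase, fell from 6726 ± 549 in Control to 3789 ± 377 in mdx, and from 7418 ± 2165 to 3350.3 ± 599.8, also with all 8 below 8. Me1, the cytosolic malic enzyme that makes NADPH, fell from 2527 ± 463 to 1363 ± 379, and from 3205 ± 1107 to 1222 ± 254. Dglucy, the mitochondrial D-glutamate cyclase, was 640.3, 449.8, 359 and 493 in Control, 380.0, 401, 616 and 532 in miR-133b-/-, 337, 267, 278 and 271 in mdx and 251, 210.1, 306 and 196 in the double mutant. Here mdx 1 was above the other mdx libraries. Adhfe1, a hydroxyacid-oxoacid transhydrogenase, was the most variable member: 180.1, 277, 271 and 297 in Control, 130.0, 89.9, 242 and 271 in miR-133b-/-, 157, 129, 159 and 38.2 in mdx and 42.2, 47.0, 61.8 and 111 in the double mutant. The mdx to Control ratio of Adhfe1 was 0.472, or 0.580 without mdx 4, and its call then ended (limma, adjusted p = 0.0802).

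Nuclear receptors are transcription factors, many of which are switched by small ligands, and Ppara and Thrb are members of this kind. Ppara, a receptor for fatty acids that drives genes of their oxidation, fell from 361 ± 136 in Control to 151 ± 24.8 in mdx (SD, n = 4), and from 370.2 ± 116 in miR-133b-/- to 161 ± 90.5 in the double mutant. Thrb, a thyroid hormone receptor, had ratios of 0.553 and 0.576. On a lipid list of 5 listed genes, Ppara was the only member and the only gene called lower in mdx than in Control, while Angptl4 was higher (ratio 4.00).

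Receptors and signalling proteins made up 16 members. Cntfr, the ligand-binding subunit of the receptor for ciliary neurotrophic factor, was 349, 339, 671 and 1321 in Control, 537, 1062, 655 and 539.6 in miR-133b-/-, 370.1, 273, 472 and 251 in mdx and 177, 253, 323 and 104 in the double mutant. Control 4 was the high one, and without it the mdx to Control ratio of Cntfr was 0.754 in place of 0.51. Its difference was -0.78 ± 0.39 (log2, SE) in mdx against Control (limma adjusted p = 0.0844) and -1.76 ± 0.39 in the double mutant against miR-133b-/-. Paqr9, of a family of progestin and adiponectin receptors, was 330.1, 354, 295 and 329.9 in Control, 279, 410.4, 354 and 261 in miR-133b-/-, 107, 95.4, 105 and 149 in mdx and 104, 218, 225 and 189 in the double mutant. It is the member whose second ratio exceeded the first by most (0.348 and 0.564). Npy1r, a receptor of neuropeptide Y, had means of 200.3 ± 93.5 in Control and 81.8 ± 23.1 in mdx, and the sorting receptor Sorl1 had 1584 ± 107 and 852 ± 106.

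Of the signalling genes, Cib2, a calcium- and integrin-binding protein, had the highest level per length, at 2097 scaled counts per kb in Control. It was 3513, 2699, 2664 and 3142 in Control, 4607, 3682, 4226 and 3986 in miR-133b-/-, 1585, 1411, 1707 and 1566 in mdx and 1259, 2223, 1879 and 1855 in the double mutant. The ribosomal S6 kinase Rps6ka2, nearest to the limit, was 2062, 1818, 2186 and 2306 in Control, 1439, 1719.5, 2232 and 2468 in miR-133b-/-, 1383, 1266, 1157 and 1197 in mdx and 1244, 1224, 881 and 799 in the double mutant. For both of these the 8 libraries with mdx lay below the 8 others. Map2k6, a kinase that activates p38 MAP kinases, had means of 2598 ± 329.7 in Control and 1374 ± 229 in mdx. Egln1, the prolyl hydroxylase that senses oxygen, had 3495 ± 584 and 2069.9 ± 177, and Rcan2, a regulator of calcineurin, 875 ± 174 and 480.3 ± 103 (SD, n = 4). Tbc1d16 and Dennd4b, regulators of Rab GTPases, and the death-domain adaptor Cradd had mdx to Control ratios of 0.503, 0.551 and 0.493. A list of signalling genes by name prefix held 25 listed genes. Of these, 6 were called lower and 15 higher in mdx than in Control, beside 21.7% and 44.5% of all listed genes. Its 3 members were Dusp26, Map2k6 and Pde4a.

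In protein turnover, Gid4, a substrate receptor of an E3 ubiquitin ligase, Klhl23, Ube2t, a ubiquitin-conjugating enzyme, the protease inhibitor Serpine2 and the chaperone gene Hspa1l had mdx to Control ratios of 0.468, 0.445, 0.496, 0.589 and 0.586. Of 15 listed ubiquitin genes 5 were called lower and 4 higher in mdx than in Control, beside 21.7% and 44.5% of all listed genes. The 19 members with no assigned role had ratios of 0.341 to 0.588. Among these were Hs3st5, a heparan sulfate sulfotransferase (0.388), Ybx2, a nucleic acid-binding protein (0.505), Syngr1, a synaptogyrin (0.588), Eepd1 (0.563), Tex2 (0.582), Mreg (0.539), Tmem233 (0.571), Smco1 (0.554), Pcp4l1 (0.47), Gm10762 (0.514) and Zfp651 (0.562). The histone gene Hist1h4i (0.532), like Hspa1l, has near-identical relatives, so its counts are uncertain. Of the 80 genes, 23 share exon bases with another annotated gene, 21 of them on the opposite strand (such as Raver2 with Jak1 and Fam131a with Clcn2), and whether counting used strand was not given in the sources used here.

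The rule did not directly set how the 80 genes responded when miR-133b was missing. For miR-133b-/- against Control, limma called no member and no listed gene (0% of 831, Benjamini-Hochberg adjusted p under 0.05). At an unadjusted p under 0.05, 9 members were higher (11.25%, against 4.33% of listed genes) and 1 was lower (1.25%, against 5.78%), and limma-voom on the recovered reads also called none. Among the 195 other lower genes, 18 were higher and 2 lower at that unadjusted threshold. The median difference was 0.09 over the members, 0.10 over those 195 and -0.07 over all listed genes. Both groups stand in the rule as denominators, and this leaning was not particular to the members. In mdx muscle, mdx/miR-133b-/- against mdx, 3 members were higher, beside 7.46% of listed genes, and 3 were lower, beside 12% of listed genes. Both group means stand in the rule as numerators, and 81 of the 100 listed lower calls fell among the 195 other lower genes, so nothing is read from the members' share. The members' median difference was -0.10, against -0.04 over all listed genes.

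The 2 differences are tied to each other by the rule. Their difference, the interaction, equals the fall in the double mutant minus the fall in mdx, and the rule limits both falls, so the 2 differences cannot vary freely against each other. No member was called in the interaction, beside 0.963% of listed genes, and none had an unadjusted p under 0.05, where 12.3% of listed genes were lower and 8.42% higher (limma; limma-voom also called no member). The fitted fall was larger on the miR-133b-/- background in 64 of the 80, and the interaction was below 0 in 49.2% of listed genes and in all of the 195 other lower genes. These counts rest on the ratios that chose the genes, and nothing is read from them. The smallest p among members was that of Paqr9 (0.67 ± 0.34 SE, limma adjusted p = 0.264). Adssl1 (-0.65 ± 0.36, adjusted p = 0.308 by limma) and Cntfr (-0.98 ± 0.55, adjusted p = 0.317 by limma) followed. The mean of the 2 differences is not a difference that enters the rule, and this contrast was added after they had been seen: 6 members were called higher without miR-133b, beside 4.09% of listed genes, and 4 lower, beside 6.5%.

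**Figure D4:**
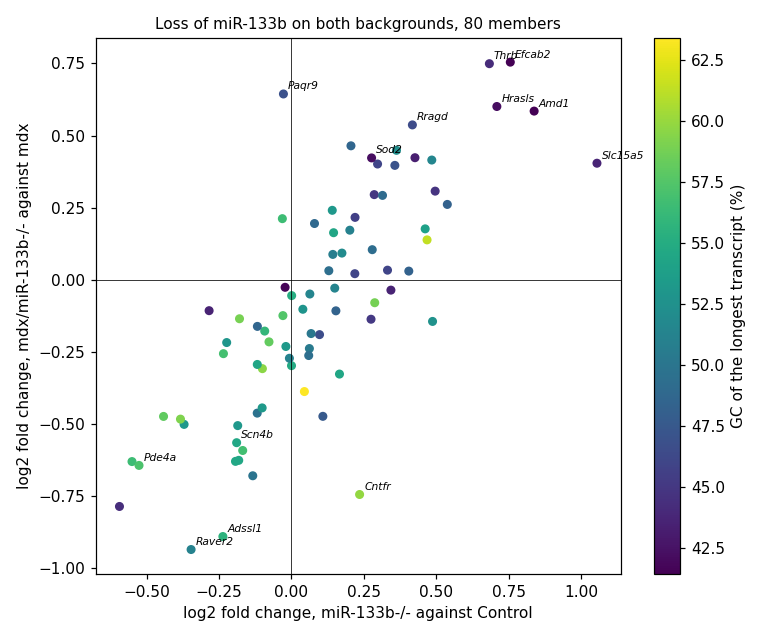
Each of the 80 members is placed by its log2 fold change in miR-133b-/- against Control (horizontal) and in the double mutant against mdx (vertical), and coloured by the GC content of its longest transcript in percent. Efcab2 and Thrb lie at the top right (0.76 and 0.68 by 0.75), Raver2 and Adssl1 at the bottom, and low-GC genes (dark) lie mostly to the upper right; the diagonal spread is fixed in part by how members were chosen.

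Thrb and Efcab2 were the members called higher in both contrasts with the smallest p. Thrb encodes a receptor for thyroid hormone, which sets contractile and metabolic properties of muscle fibres; the gene lies at chr14:17660261-18038090 (GRCm38). It was 454, 397, 426 and 516 in Control and 917, 774, 698 and 534 in miR-133b-/-, and 285, 251, 244 and 210.5 in mdx and 325, 495, 473 and 390.4 in the double mutant. No library of the groups compared overlapped on either background, and the double mutant mean was 421 ± 78.3 beside 448 ± 50.8 in Control (SD, n = 4). The difference was 0.75 ± 0.20 (log2, SE) in mdx muscle (limma adjusted p = 0.0166), 0.68 ± 0.20 with dystrophin (adjusted p = 0.283 by limma, not passing) and 0.72 ± 0.14 for the mean of both (adjusted p = 0.00317 by limma).

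Efcab2, an EF-hand gene at chr1:178406085-178484513, was 263, 232, 257 and 271 in Control and 562, 461, 452 and 298 in miR-133b-/-, and 152, 143, 131 and 130.2 in mdx and 179, 228, 249 and 297 in the double mutant. It too was free of overlap in both comparisons. The difference was 0.75 ± 0.21 in mdx muscle (limma adjusted p = 0.0196), 0.76 ± 0.21 with dystrophin (limma adjusted p = 0.272, not passing) and 0.76 ± 0.15 for the mean of both (limma adjusted p = 0.00317). The mean of both stayed called in all 26 alternatives for Thrb and Efcab2, with limma adjusted p of 0.00129 to 0.0386 and 0.000914 to 0.0329, while in mdx muscle alone 4 and 6 of 19 alternatives ended the call.

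Rragd, a Rag GTPase that carries the amino acid signal to mTORC1 at the lysosome, was 5807, 4679, 5125 and 6275 in Control, 8363, 6366, 7454 and 7014 in miR-133b-/-, 3232, 2908, 3003 and 2478 in mdx and 3147, 4548, 4727 and 4584 in the double mutant. Double mutant 1 alone lay within the mdx range. The difference was 0.54 ± 0.17 in mdx muscle (limma adjusted p = 0.0354) and 0.48 ± 0.12 for the mean of both (limma adjusted p = 0.0193). For Rragd, 12 of 19 alternatives ended the call in mdx muscle (limma adjusted p up to 0.322) and 2 of 26 that for the mean. Hrasls, a phospholipase and acyltransferase related to Pla2g16, was 1522, 1129.5, 1261 and 1333 in Control, 3284, 2208, 2170.2 and 1314 in miR-133b-/-, 764, 734, 703 and 727 in mdx and 753, 1210.0, 1265 and 1317 in the double mutant. Its libraries overlapped in miR-133b-/- 4 and double mutant 1, and it was called for the mean of both only (0.66 ± 0.16, limma adjusted p = 0.0187; 0.60 ± 0.23 and adjusted p = 0.0764 in mdx muscle). Pla2g12a, a secreted phospholipase A2, was 599.5, 554, 749.5 and 727 in Control, 887, 969, 995 and 813 in miR-133b-/-, 349, 299.7, 409 and 337 in mdx and 376, 459, 437 and 607 in the double mutant, with a mean difference of 0.45 ± 0.13 (limma adjusted p = 0.0337). Sod2, whose values stand above, had 0.35 ± 0.11 (limma adjusted p = 0.0450), and 19 of 26 alternatives ended that call. Once trends in GC content and length were taken out, Sod2 differed by 0.10 (limma adjusted p = 0.653). The calls for the mean of both ended in 2 of 26 alternatives for Hrasls and in 9 for Pla2g12a.

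Lower without miR-133b were Raver2, Adssl1 and Scn4b in mdx muscle, and Raver2, Pde4a, Adgrl1 and Fam131a for the mean of both. Raver2, an RNA-binding protein, was 208, 169, 239.8 and 161 in Control, 158, 161, 213 and 95.2 in miR-133b-/-, 91.8, 83.2, 95.5 and 119 in mdx and 60.5, 42.4, 65.8 and 36.9 in the double mutant, where the last 2 groups did not overlap. The difference was -0.94 ± 0.27 in mdx muscle (limma adjusted p = 0.0240) and -0.64 ± 0.19 for the mean of both (limma adjusted p = 0.0355). Adssl1 and Scn4b, each without overlap between the double mutant and mdx, differed by -0.89 ± 0.26 (limma adjusted p = 0.0244) and -0.57 ± 0.18 (limma adjusted p = 0.0395). These calls ended in 6 of 19 alternatives for Adssl1 and in 10 of 19 for Scn4b (limma adjusted p up to 0.116 and 0.125). Pde4a, a cyclic AMP phosphodiesterase, was 2566, 1489.6, 2610.5 and 2004 in Control, 1394, 1522, 1613 and 1357 in miR-133b-/-, 1299, 1009, 1061 and 1420.1 in mdx and 926, 1133, 527 and 598 in the double mutant, with a mean difference of -0.59 ± 0.16 (limma adjusted p = 0.0316). Adgrl1, an adhesion receptor of the latrophilin family, had 682 ± 93.9, 526 ± 98.0, 349 ± 77.4 and 245 ± 11.7 in the same order of groups (SD, n = 4). Fam131a had 1549.6 ± 422, 1096 ± 414, 858 ± 97.9 and 569 ± 167. Both passed narrowly for the mean (limma adjusted p = 0.0496 for each), and the calls ended in 19 of 26 alternatives for Adgrl1 and 20 for Fam131a. Those of Raver2 and Pde4a for the mean ended in 11 of 26 each, and that of Raver2 in mdx muscle in 4 of 19.

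**Figure D5:**
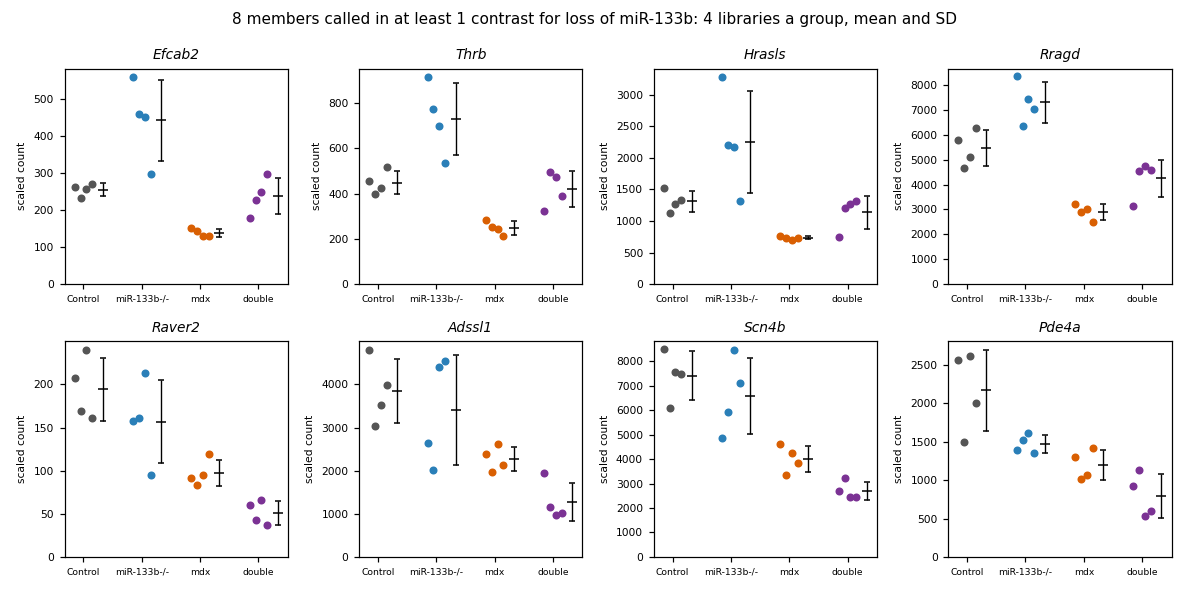
Scaled counts (vertical axes from 0) of 8 members called in mdx/miR-133b-/- against mdx or for the mean of both backgrounds, in each library of the 4 groups; dots are libraries, the bar and whiskers the mean and SD of 4. Efcab2, Thrb, Hrasls and Rragd have higher means in miR-133b-/- than in Control and in the double mutant than in mdx, and Raver2, Adssl1, Scn4b and Pde4a lower ones.

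GC content moved with these differences. Across the 80 genes, the mean difference on loss of miR-133b had a Spearman rho of -0.57 with the GC content of the longest transcript, and across all 831 genes one of -0.49. The genes share their libraries, so this is a description. For mdx against Control the rho was 0.09 over the members. With each library's linear trend in GC content and length removed, 42 of 831 listed genes were called for the mean of both, 20 higher and 22 lower, and 4 members, all higher: Efcab2 (0.53, limma adjusted p = 0.0157), Thrb (0.51), Pla2g12a (0.56) and Cib2 (0.50). In mdx muscle alone 56 of 831 listed genes and 3 members were then called, Pla2g12a higher (0.67) and Raver2 (-0.94) and Abcd2 (-0.49) lower. The differences in mdx muscle moved from 0.75 to 0.36 for Thrb, from 0.75 to 0.40 for Efcab2, from 0.54 to 0.29 for Rragd, from -0.89 to -0.52 for Adssl1 and from -0.57 to -0.49 for Scn4b. None of these 5 passed then (limma adjusted p = 0.227, 0.161, 0.28, 0.116 and 0.0647). Efcab2 and Thrb have GC contents of 41.5% and 44.1%, against a median of 51.1% in the members.

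The size of the fall depended on scaling. Under relative log expression factors taken from the 831 genes, the median mdx to Control difference over all listed genes moved from 0.44 to 0.09 and the calls from 370 higher and 180 lower to 260 and 270; for the double mutant against miR-133b-/- the median moved from 0.95 to 0.39. These factors shift all genes downwards, and the members' medians became -1.27 and -1.65.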

How the data were processed

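RNA from whole tibialis anterior muscle of 16 samples was sequenced, and the submitters' processing notes name HISAT2, HTSeq and the GRCm38 build. Their versions and settings, and whether strand was used, were not given in the sources used here. The authors deposited 1 table of 831 genes whose values are counts scaled by 1 factor per library, used here as a signal; after division by that factor (0.459 to 1) 100% of values were whole within 0.001 read. Samples were grouped by title. Gene types, positions, lengths and GC content came from GENCODE M21, matched for 831 of 831 IDs, and sequences from RefSeq. Each comparison was fitted with limma 3.58.1 (R 4.3.3) on log2(scaled count + 1), with a variance trend and 1 mean per group over all 16 libraries. No further filter was added, and Benjamini-Hochberg adjustment at 0.05 ran over the 831 deposited genes. Every one of these passed in the double mutant against miR-133b-/-. Adjusted p-values and shares of listed genes therefore hold for this list and not for all expressed genes. Tables used Python 3.11.15. Fits were tested on simulated data. The 80 genes and the gene lists were chosen with earlier results of these data known. Values by library or group means were given for the 8 members with the lowest combined ratio, members called for loss of miR-133b, those nearest the limit, and members described for their role or spread. One member is counted but not reported here. Alternatives covered scaling, pseudocount, a filter on low values, the variance trend, a replicate block, GC content and length, limma-voom and leaving out each library. Same-numbered libraries did not deviate together, so the numbers were not used as pairs.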

Additional observations from a re-analysis of the deposited data

Results flagged for a closer look

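The 29 members examined here were described above by library, except Adgrl1 and Fam131a, which were given as group means. Their 116 groups of 4 were searched for a library far from the other 3 (gap to the nearest over the range, by the Dixon criterion). Such a library was found in 5 groups, and chance gives about 1 in 20 groups. Dusp26 in the double mutant 4 was 163.3, against 33.79 to 46.2 in the others. Smox in Control 1 was 2830, against 787.5 to 980.4. Fam131a in Control 1 was 2176, against 1283 to 1426. Rragd in the double mutant 1 was 3147, against 4548 to 4727. Dglucy in mdx 1 was 336.5, against 266.7 to 277.6. Without the library concerned, the ratio of the double mutant to miR-133b-/- was 0.183 for Dusp26 and 0.633 for Rragd, and the mdx to Control ratio was 0.586 for Smox, 0.640 for Fam131a and 0.560 for Dglucy.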

How the results depend on the processing

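The number of members was 80; it was 19 at a ratio limit of 0.5, 146 at 0.7, 186 with relative log expression factors (all 80 among them) and 65 to 98 when 1 library was left out, the lowest without Control 1 and the highest without Control 2. No named gene changed direction under any alternative that was run; among their values, 3527 kept their side of the threshold, 139 lost a call and 34 gained one. Calls in mdx/miR-133b-/- against mdx, 162 in all with 6 members, were 56 and 3 with the GC and length trend removed, 50 and 2 with the replicate block as well, and 49 to 197 and 1 to 11 with 1 library left out. Calls in the interaction, 8 with no member, were 14 with relative log expression factors, 4 with a mean of at least 100, 5 with the GC and length trend removed, and 7 to 110 with 1 library left out, the highest without miR-133b-/- 2; no member was called in any of these. Calls for the mean of both backgrounds, 88 with 10 members, were 53 and 4 with relative log expression factors, 54 and 5 with the replicate block, 41 and 5 with the block and the GC and length trend removed, 42 and 4 with that trend alone removed, and 33 to 131 and 4 to 15 with 1 library left out; without a variance trend 6 members were called. The cause of these shifts was not tested. In the replicate block, the pairs gave no shared deviation: of 24 pairs with the same number, 2 had a correlation over 0.1 (median -0.07), and the block left 541 calls in mdx against Control, where 550 were made without it. The planned quasi-likelihood count test was not run. Total depth is unknown, which limits statements on low genes.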
